A study of Mus musculus with 30 samples.

Results

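The genes described are the 28 members of the circadian clock and its output program in mouse liver, chosen by name from the known clock machinery and its rhythmic targets, out of 55335 genes in the count table. All 28 were matched by symbol, and all 28 passed the expression filter in the fit of all libraries, in which 15010 genes were tested. Liver mRNA was sequenced from young adult male mice on an albino C57BL/6J background 24 hours after an oral dose of vehicle or of CDDO-Me (bardoxolone methyl) at 30 µmol/kg. CDDO-Me is a triterpenoid that modifies KEAP1, the repressor of the transcription factor NRF2. The 3 genotypes were wild-type mice from a commercial supplier, homozygous C151S knock-in mice, whose Keap1 alleles carry a serine in place of a sensor cysteine in every cell, and Nrf2-knockout mice, which lack NRF2 throughout the body. Each of the 6 combinations of genotype and treatment had 5 mice and 1 library per mouse, 30 libraries in all. The hour of dosing and of tissue collection was not given in the sources used here.

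The mammalian clock is a transcriptional feedback loop. BMAL1 (encoded by Arntl) pairs with CLOCK or NPAS2 and activates genes that carry an E-box, among them the Per and Cry genes, whose proteins return to repress that activity. A second loop joins it, in which the nuclear receptors REV-ERBα and REV-ERBβ (Nr1d1 and Nr1d2) repress Arntl, Npas2, and Nfil3 through RORE elements and the ROR receptors activate them. The PAR bZIP factors DBP, TEF, and HLF act on D-box elements, and NFIL3 opposes them there. In the liver these loops set daily rhythms in many metabolic transcripts, with Arntl and Npas2 peaking at a phase opposite to that of Dbp and the Per genes.

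Values are log2 CPM, the base-2 logarithm of read counts scaled to a fixed library total, with library sizes adjusted by TMM factors (trimmed mean of M values, edgeR) and a prior count of 2. A gene was called in a comparison of groups when edgeR's quasi-likelihood F-test gave a Benjamini-Hochberg adjusted p under 0.05 over all genes tested and the absolute log2 fold change was at least 0.5. Between 23667068 and 42073169 counts fell on genes in each library, and 3 counts were taken as the floor of detection, which reflects counting error alone. As a check of the labels, the NRF2 target Nqo1 rose after CDDO-Me in wild-type mice by 3.16 ± 0.28 log2 units (SE, edgeR adjusted p = 3.87e-05), and Nfe2l2, which encodes NRF2, was lower in vehicle-treated Nrf2-knockout than in wild-type mice with a difference of -0.89 ± 0.10 log2 units (SE, edgeR adjusted p = 0.000394). Summed hepatocyte markers ranged from 70015 to 128810 CPM in the libraries high in Arntl and from 101070 to 151330 CPM in those low in it (the sets are defined next), while pancreas markers summed to at most 0.251 CPM, and the part of cell makeup in the results was not tested. In bulk tissue, fewer cells of a type and less RNA per cell cannot be told apart.

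Arntl (ENSMUSG00000055116.8, GRCm38 chr7:113207465-113314126) divided the libraries. Arntl measured 3.61, 4.79, 3.26, 3.50, and 3.75 log2 CPM in vehicle-treated wild-type mice and 4.22, 4.06, 3.86, 3.73, and 3.56 log2 CPM after CDDO-Me. Arntl measured 3.59, 2.52, 4.73, -1.15, and -1.01 log2 CPM in vehicle-treated C151S mice and 3.69, 3.80, -0.36, -0.89, and -0.25 log2 CPM after CDDO-Me. Arntl measured 0.59, 0.03, -0.54, 3.49, and 4.0 log2 CPM in vehicle-treated Nrf2-knockout mice and 0.90, 4.08, -0.01, -0.47, and 3.36 log2 CPM after CDDO-Me. All 10 wild-type libraries were high, and every mutant group held libraries of both kinds. Ordered by Arntl, the 30 libraries showed their widest gap, 1.62 log2 units, between 0.90 and 2.52, against 0.74 for the next widest. The 11 libraries under the gap, called low-Arntl here, came from 2 vehicle-treated and 3 C151S mice given CDDO-Me and from 3 vehicle-treated and 3 CDDO-Me-treated Nrf2-knockout mice. The other 19 are called high-Arntl. This division was made from Arntl values, so differences between the sets are given as a description with no test. In the order of the sample numbers, all high-Arntl C151S libraries came before all low-Arntl ones. In Nrf2-knockout mice the low-Arntl libraries came first, with only replicate 2 of the CDDO-Me-treated mice being high-Arntl among them. Whether the sets follow the date of isolation or the hour of collection was not tested, as the sources used here give neither.

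**Figure D1:**
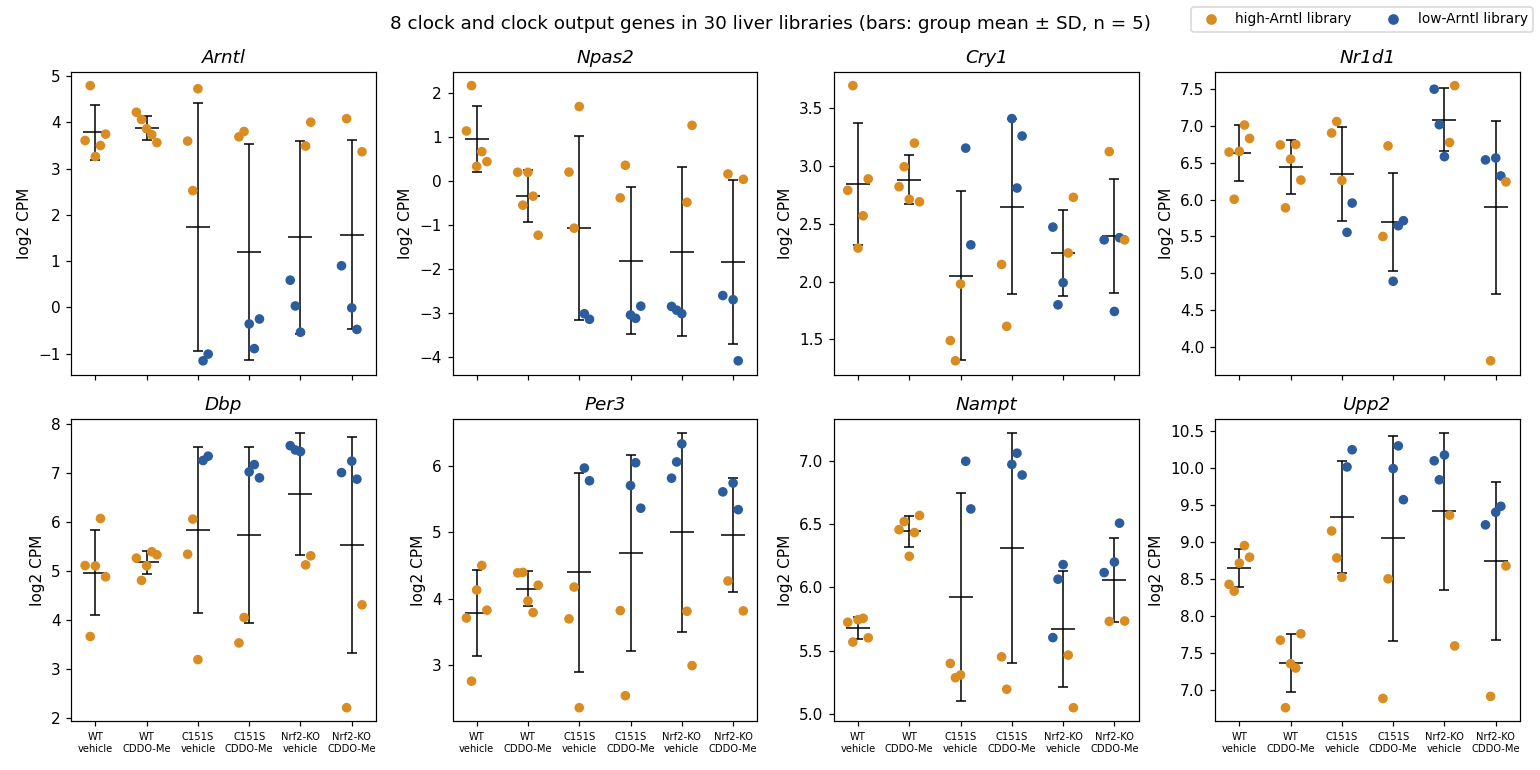
Log2 CPM (y axis) of 8 members in each of the 30 libraries, by genotype and treatment (x axis); points are libraries coloured by the set they belong to, and bars are the group mean ± SD (n = 5). Arntl lay between 3.26 and 4.79 in wild-type mice and fell into separate high and low libraries in each mutant group.

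Npas2 (ENSMUSG00000026077.15, GRCm38 chr1:39193731-39363236), whose product can replace CLOCK, was divided in the same way. Npas2 measured 1.15, 2.18, 0.34, 0.68, and 0.45 log2 CPM in vehicle-treated wild-type mice and 0.21, -0.54, 0.21, -0.34, and -1.22 log2 CPM after CDDO-Me. Npas2 measured 0.21, -1.06, 1.70, -3.01, and -3.13 log2 CPM in vehicle-treated C151S mice and -0.38, 0.37, -3.04, -3.11, and -2.84 log2 CPM after CDDO-Me. Npas2 measured -2.84, -2.93, -3.01, -0.47, and 1.27 log2 CPM in vehicle-treated Nrf2-knockout mice and -2.59, 0.17, -2.69, -4.08, and 0.05 log2 CPM after CDDO-Me. All 11 low-Arntl libraries held 0 to 4 Npas2 counts, and all 19 high-Arntl libraries held 12 to 130. The Npas2 level of the low-Arntl libraries thus sat at or near the floor of 3 counts. Clock, the usual partner, ranged from 4.07 to 5.10 log2 CPM in the low-Arntl libraries and 5.01 to 5.98 in the high-Arntl libraries, so that 10 of the 11 low-Arntl libraries were among its 11 lowest.

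The D-box activator Dbp (ENSMUSG00000059824.12, GRCm38 chr7:45705088-45710203) ran the other way. Dbp measured 5.11, 3.66, 5.10, 6.06, and 4.87 log2 CPM in vehicle-treated wild-type mice and 5.26, 4.80, 5.10, 5.39, and 5.32 log2 CPM after CDDO-Me. Dbp measured 5.34, 6.05, 3.19, 7.25, and 7.34 log2 CPM in vehicle-treated C151S mice and 3.53, 4.04, 7.02, 7.16, and 6.89 log2 CPM after CDDO-Me. Dbp measured 7.55, 7.46, 7.43, 5.12, and 5.30 log2 CPM in vehicle-treated Nrf2-knockout mice and 7.0, 2.20, 7.23, 6.87, and 4.30 log2 CPM after CDDO-Me. Every low-Arntl library exceeded every high-Arntl library. The high-Arntl library with the lowest Dbp, replicate 2 of the CDDO-Me-treated Nrf2-knockout mice, also had the lowest Nr1d1 of the 30. Per3 (ENSMUSG00000028957.12, GRCm38 chr4:151003652-151044665), a period gene that is rhythmic in liver, behaved like Dbp. Per3 measured 3.71, 2.75, 4.13, 4.50, and 3.83 log2 CPM in vehicle-treated wild-type mice and 4.39, 4.40, 3.96, 3.79, and 4.20 log2 CPM after CDDO-Me. Per3 measured 3.70, 4.17, 2.35, 5.97, and 5.78 log2 CPM in vehicle-treated C151S mice and 3.82, 2.54, 5.71, 6.05, and 5.36 log2 CPM after CDDO-Me. Per3 measured 5.82, 6.06, 6.34, 3.81, and 2.99 log2 CPM in vehicle-treated Nrf2-knockout mice and 5.61, 4.27, 5.74, 5.34, and 3.82 log2 CPM after CDDO-Me. No low-Arntl library overlapped the high-Arntl libraries.

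Over the members other than Arntl, 1 of 27 (Npas2) had its 11 lowest libraries exactly in the low-Arntl set, against 0.207% of 15009 other genes tested, and 7 of 27 (Per2, Per3, Dbp, Tef, Ciart, Usp2, and Wee1) had their 11 highest libraries there, against 0.213%. Without TMM the numbers were 1 and 8, Cry2 being added. Ciart, a repressor of the BMAL1 complex, ranged from 4.66 to 6.13 log2 CPM in the low-Arntl libraries and -0.45 to 3.42 in the high-Arntl libraries. Usp2, a ubiquitin-specific protease with a clock-driven rhythm, ranged from 5.01 to 6.76 log2 CPM in the low-Arntl libraries and 1.33 to 4.59 in the high-Arntl libraries. Tef ranged from 7.59 to 8.23 log2 CPM in the low-Arntl libraries and 5.83 to 7.17 in the high-Arntl libraries. Per2, which with the CRY proteins closes the loop, ranged from 4.78 to 5.98 log2 CPM in the low-Arntl libraries and 2.19 to 4.06 in the high-Arntl libraries. Wee1, a cell cycle kinase, ranged from 3.28 to 4.66 log2 CPM in the low-Arntl libraries and 0.91 to 2.98 in the high-Arntl libraries.

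Several members were less cleanly divided. Upp2, a uridine phosphorylase, and the cryptochrome gene Cry2 each had 10 of the low-Arntl libraries among their 11 highest, and Nr1d2, which encodes REV-ERBβ, had 9. Cry2 ranged from 5.51 to 6.10 log2 CPM in the low-Arntl libraries and 4.78 to 5.51 in the high-Arntl libraries. Nr1d2 ranged from 6.25 to 7.13 log2 CPM in the low-Arntl libraries and 5.15 to 6.51 in the high-Arntl libraries. Per1, an immediate-early member of the period genes, Hlf, and Noct, which encodes nocturnin, each had 8. Per1 ranged from 5.25 to 6.66 log2 CPM in the low-Arntl libraries and 3.17 to 5.93 in the high-Arntl libraries. Hlf ranged from 5.19 to 6.34 log2 CPM in the low-Arntl libraries and 4.50 to 5.71 in the high-Arntl libraries. Noct ranged from 4.10 to 7.5 log2 CPM in the low-Arntl libraries and 1.51 to 5.99 in the high-Arntl libraries, the widest spread of the low-Arntl libraries among the members. Avpr1a, a vasopressin receptor, had 9 of its 11 lowest libraries in the low-Arntl set, and Nfil3, the D-box repressor, had 8. Avpr1a ranged from 3.54 to 4.40 log2 CPM in the low-Arntl libraries and 4.15 to 5.59 in the high-Arntl libraries. Nfil3 ranged from 2.62 to 4.22 log2 CPM in the low-Arntl libraries and 3.47 to 5.98 in the high-Arntl libraries. Bhlhe41, a repressor related to Bhlhe40, had 6 of the low-Arntl libraries among its 11 highest and ranged from 0.86 to 2.95 log2 CPM in the low-Arntl libraries and -1.52 to 2.02 in the high-Arntl libraries. Cry1, Nr1d1, Bhlhe40, Csnk1d, Csnk1e, Btrc, Lonrf3, and Rora overlapped across most of their range. Bhlhe40 ranged from 6.42 to 8.04 log2 CPM in the low-Arntl libraries and 5.52 to 7.69 in the high-Arntl libraries. Rora, which encodes the activating receptor RORα, ranged from 5.43 to 6.31 log2 CPM in the low-Arntl libraries and 5.16 to 6.26 in the high-Arntl libraries. The kinase gene Csnk1d ranged from 5.95 to 6.23 log2 CPM in the low-Arntl libraries and 5.81 to 6.35 in the high-Arntl libraries, and Csnk1e from 2.36 to 2.88 log2 CPM in the low-Arntl libraries and 2.30 to 3.14 in the high-Arntl libraries. Btrc, an F-box protein that targets PER proteins for degradation, ranged from 3.76 to 4.47 log2 CPM in the low-Arntl libraries and 3.70 to 4.37 in the high-Arntl libraries. Lonrf3, a RING finger gene, ranged from -1.18 to 0.89 log2 CPM in the low-Arntl libraries and -1.06 to 1.17 in the high-Arntl libraries.

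Cry1, a repressor of the loop, is one of these (ENSMUSG00000020038.10, GRCm38 chr10:85131700-85185064). Cry1 measured 2.79, 3.70, 2.29, 2.57, and 2.89 log2 CPM in vehicle-treated wild-type mice and 2.82, 2.99, 2.71, 3.20, and 2.69 log2 CPM after CDDO-Me. Cry1 measured 1.49, 1.31, 1.98, 3.16, and 2.32 log2 CPM in vehicle-treated C151S mice and 2.15, 1.61, 3.41, 2.81, and 3.26 log2 CPM after CDDO-Me. Cry1 measured 2.47, 1.80, 1.99, 2.25, and 2.73 log2 CPM in vehicle-treated Nrf2-knockout mice and 2.36, 3.12, 1.74, 2.38, and 2.36 log2 CPM after CDDO-Me. Cry1 was lowest in C151S libraries of the high-Arntl set, and the low-Arntl libraries of that genotype stood higher. Nr1d1 measured 6.65, 6.0, 6.66, 7.01, and 6.83 log2 CPM in vehicle-treated wild-type mice and 6.74, 5.89, 6.55, 6.75, and 6.26 log2 CPM after CDDO-Me. Nr1d1 measured 6.90, 7.06, 6.26, 5.55, and 5.95 log2 CPM in vehicle-treated C151S mice and 5.50, 6.73, 4.89, 5.64, and 5.71 log2 CPM after CDDO-Me. Nr1d1 measured 7.5, 7.02, 6.58, 6.78, and 7.55 log2 CPM in vehicle-treated Nrf2-knockout mice and 6.54, 3.81, 6.57, 6.32, and 6.24 log2 CPM after CDDO-Me. Nr1d1 (ENSMUSG00000020889.11, GRCm38 chr11:98767932-98775333), which encodes REV-ERBα, showed values of 4.89 to 7.5 in the low-Arntl libraries and 3.81 to 7.55 in the others, so the sets overlapped.

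**Figure D2:**
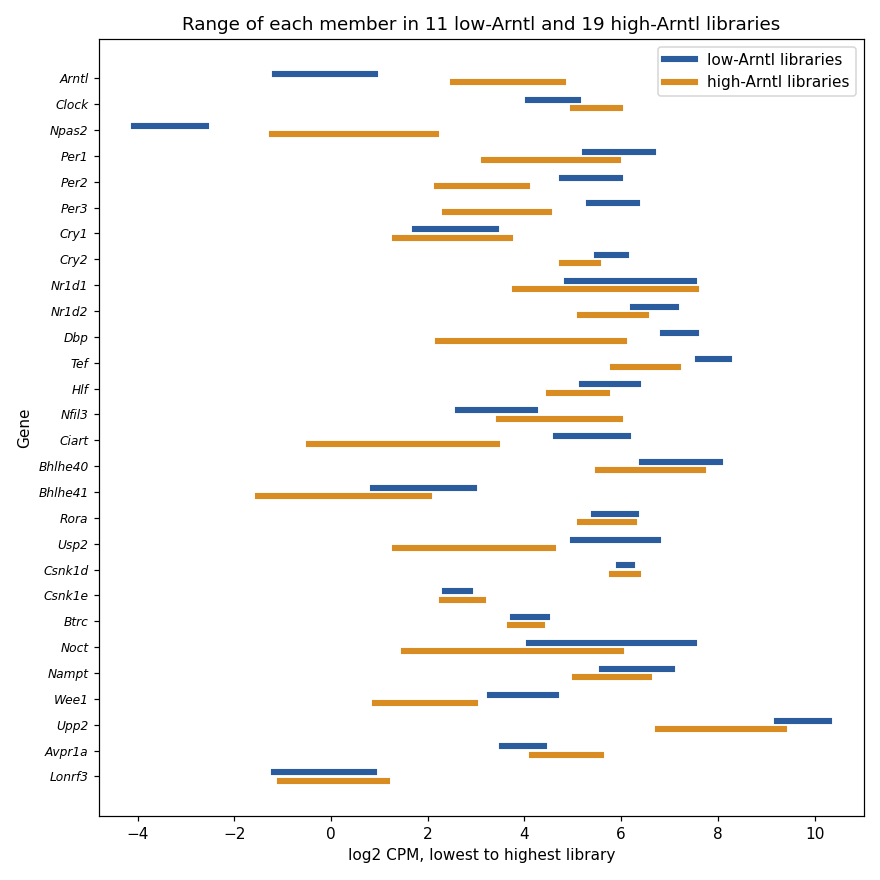
Lowest to highest log2 CPM (x axis) of each of the 28 members (y axis) in the 11 low-Arntl and the 19 high-Arntl libraries. Dbp, Per3, Ciart, Tef, and Usp2 have no overlap between the bars, while those of Nr1d1, Cry1, and Csnk1d overlap.

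**Figure D3:**
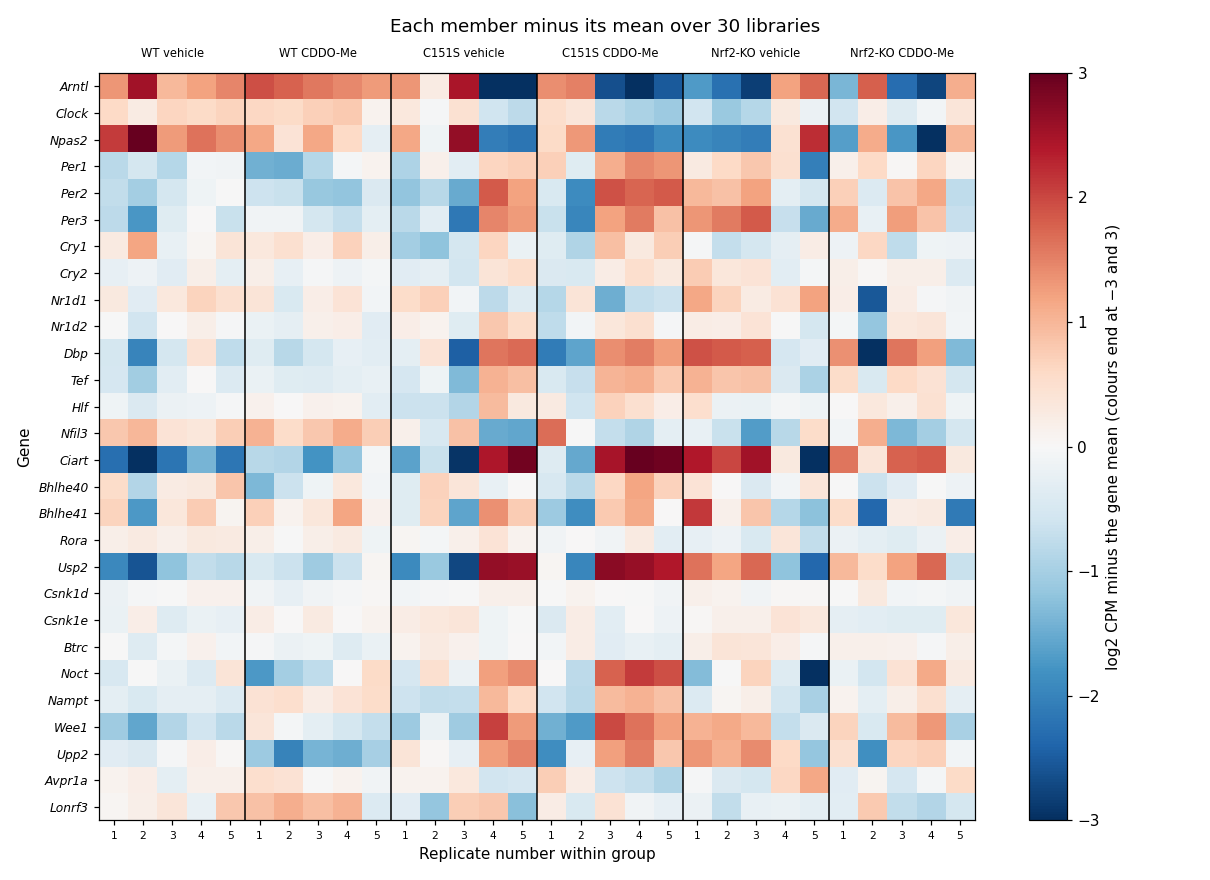
Log2 CPM of each member minus its mean over the 30 libraries, with genes as rows (y axis) and libraries as columns, by replicate number within group (x axis). Libraries 4 and 5 of the vehicle-treated C151S mice, 3 to 5 of the C151S mice given CDDO-Me, 1 to 3 of the vehicle-treated Nrf2-knockout mice, and 1, 3, and 4 of the CDDO-Me-treated Nrf2-knockout mice are low for Arntl and high for Dbp and Per3.

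Sequence upstream of the members was examined in RefSeq promoter windows of GRCm38.p6, 250 bases before each annotated start. For 23 of the 28 members there were 32 windows; for Per2, Bhlhe40, Csnk1d, Btrc, and Wee1 none was used here. Motifs were searched on both strands in 7 forms. The E-box CACGTG was found in windows of 6 of the 23 members (Bhlhe41, Ciart, Cry1, Lonrf3, Per1, and Tef), against 6.86% of all 27025 genes with a window. The E-prime-box CACGTT was found for 3 members and 4.5% of all genes, the D-box TTANGTAA for 1 and 2.44%, the CRE TGACGTCA for 1 and 1.77%, the antioxidant response element TGACNNNGC for 3 and 11.5%, and the RORE as TAGGTCA or TGGGTCA for 1 (Nfil3) and 6.15%. The seventh form, a wider RORE of TNGGTCA, was added after the matches of the other 6 were known. It held matches for 5 members, Arntl among them, and 10.5% of all genes. These letters overlap between forms: every TAGGTCA or TGGGTCA is also a TNGGTCA.

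The windows shown are those of a gene low in the low-Arntl set, of 3 genes high in it, and of the narrow RORE match; for Arntl and Tef, which have 2 windows each, the first is given. Capitals mark E-box, D-box, or RORE letters on either strand.
Arntl, GRCm38.p6 chr7:113207215-113207464, plus strand: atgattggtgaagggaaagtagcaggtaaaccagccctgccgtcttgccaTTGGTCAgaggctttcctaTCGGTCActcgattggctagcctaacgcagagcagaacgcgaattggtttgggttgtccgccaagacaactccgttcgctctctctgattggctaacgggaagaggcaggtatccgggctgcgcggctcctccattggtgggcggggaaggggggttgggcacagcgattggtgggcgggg
Ciart, GRCm38.p6 chr3:95882229-95882478, minus strand: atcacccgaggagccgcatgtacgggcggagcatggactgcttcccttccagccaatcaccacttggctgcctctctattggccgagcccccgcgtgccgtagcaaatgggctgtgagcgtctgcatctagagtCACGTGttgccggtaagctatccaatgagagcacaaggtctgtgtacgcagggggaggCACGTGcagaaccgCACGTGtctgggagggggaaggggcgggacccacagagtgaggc
Per3, GRCm38.p6 chr4:151044666-151044915, minus strand: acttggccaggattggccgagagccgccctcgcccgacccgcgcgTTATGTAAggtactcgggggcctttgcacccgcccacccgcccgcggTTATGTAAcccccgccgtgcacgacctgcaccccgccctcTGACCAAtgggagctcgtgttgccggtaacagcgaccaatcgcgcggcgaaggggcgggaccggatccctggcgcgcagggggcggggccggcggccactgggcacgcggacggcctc
Tef, GRCm38.p6 chr15:81802423-81802672, plus strand: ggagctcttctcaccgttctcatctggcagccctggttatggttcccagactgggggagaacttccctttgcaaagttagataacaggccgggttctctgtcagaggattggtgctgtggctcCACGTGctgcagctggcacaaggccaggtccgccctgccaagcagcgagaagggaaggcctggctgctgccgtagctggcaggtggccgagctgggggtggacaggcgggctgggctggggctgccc
Nfil3, GRCm38.p6 chr13:52981040-52981289, minus strand: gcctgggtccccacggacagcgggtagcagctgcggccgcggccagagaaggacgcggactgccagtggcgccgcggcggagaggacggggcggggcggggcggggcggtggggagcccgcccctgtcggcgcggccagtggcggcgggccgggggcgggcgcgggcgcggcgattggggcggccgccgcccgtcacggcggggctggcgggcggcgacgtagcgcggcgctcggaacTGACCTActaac
Ciart carried 3 E-boxes in the window, at 116, 58, and 44 bases before its start. Per3 held 2 D-boxes, at 205 and 158 bases, besides a match of the wider RORE at 118 bases, and Tef 1 E-box at 127 bases. Of the narrow RORE there was 1 match, at 12 bases in Nfil3. In Arntl the 2 capitalized stretches, at 200 and 181 bases, matched the wider RORE and not the narrow one. A letter match is not evidence that a factor binds there.

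Levels can be compared between genes only per length of exon. In vehicle-treated wild-type mice Upp2 stood at 52.2 ± 9.14 CPM per kilobase of exon, Nr1d1 at 33 ± 7.81, and Bhlhe40, a repressor that competes for E-boxes, at 30.5 ± 11.2 (SD, n = 5). Arntl was at 1.97 ± 0.975, Clock at 3.9 ± 0.424, and Npas2 at 0.445 ± 0.282. Bhlhe41 and Lonrf3 were the lowest, at 0.306 ± 0.147 and 0.323 ± 0.0945.

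The spread of the members inside groups was large. Around the group means, 15 of 28 members had a residual SD above the 90th percentile of all 15010 genes tested, 5 above the 99th, and 24 above the median of 0.275 log2 units. The widest were Arntl, at 1.90, Ciart, at 1.78, Usp2, at 1.62, Npas2, at 1.59, and Dbp, at 1.49. The median SD of the members was 0.376 for wild-type, 0.806 for C151S, and 0.786 for Nrf2-knockout mice, against 0.206, 0.283, and 0.292 over all genes. The SD was larger in C151S than in wild-type mice for 27 members and larger in Nrf2-knockout mice for 25, compared with 71.7% and 74.6% of all genes. Csnk1d, Btrc, Csnk1e, and Rora, a kinase pair, an F-box protein, and a nuclear receptor of the clock, were below the median of all genes.

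CDDO-Me changed 2 of 28 members in wild-type mice, Nampt upwards and Upp2 downwards, when 2.75% of 13697 genes tested were called. Nampt (ENSMUSG00000020572.8, GRCm38 chr12:32819545-32853349) encodes the rate-limiting enzyme of NAD salvage, and it is a clock output. Nampt measured 5.73, 5.57, 5.75, 5.76, and 5.60 log2 CPM in vehicle-treated wild-type mice and 6.46, 6.52, 6.25, 6.43, and 6.57 log2 CPM after CDDO-Me. Nampt measured 5.40, 5.29, 5.31, 7.0, and 6.62 log2 CPM in vehicle-treated C151S mice and 5.45, 5.20, 6.97, 7.06, and 6.89 log2 CPM after CDDO-Me. Nampt measured 5.60, 6.07, 6.18, 5.47, and 5.05 log2 CPM in vehicle-treated Nrf2-knockout mice and 6.12, 5.73, 6.20, 6.51, and 5.74 log2 CPM after CDDO-Me. In wild-type mice every treated library was above every vehicle library, and the change was 0.76 ± 0.07 (SE, adjusted p = 6.34e-05) log2 units by edgeR. In each mutant group the low-Arntl libraries stood above the high-Arntl ones. The treatment differences were 0.40 ± 0.45 and 0.35 ± 0.22 (SE) in C151S and Nrf2-knockout mice, neither called. In C151S mice 2 of 5 vehicle and 3 of 5 CDDO-Me libraries were low-Arntl, so the difference there includes the set difference. High-Arntl C151S libraries measured 5.40, 5.29, and 5.31 with vehicle and 5.45 and 5.20 after CDDO-Me. Low-Arntl ones measured 7.0 and 6.62 with vehicle and 6.97, 7.06, and 6.89 after it.

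Upp2 (ENSMUSG00000026839.17, GRCm38 chr2:58567298-58792971) fell in wild-type mice. Upp2 measured 8.43, 8.34, 8.71, 8.95, and 8.79 log2 CPM in vehicle-treated wild-type mice and 7.68, 6.77, 7.36, 7.30, and 7.76 log2 CPM after CDDO-Me. Upp2 measured 9.15, 8.78, 8.52, 10.01, and 10.24 log2 CPM in vehicle-treated C151S mice and 6.89, 8.50, 9.99, 10.29, and 9.57 log2 CPM after CDDO-Me. Upp2 measured 10.09, 9.84, 10.17, 9.36, and 7.60 log2 CPM in vehicle-treated Nrf2-knockout mice and 9.23, 6.92, 9.40, 9.48, and 8.68 log2 CPM after CDDO-Me. Treated and vehicle libraries of wild-type mice did not overlap, and the change was -1.26 ± 0.17 (SE, adjusted p = 0.00124) log2 units by edgeR. It was -0.05 ± 0.54 in C151S and -0.68 ± 0.49 in Nrf2-knockout mice (SE), again not called. The C151S value includes the set difference, as 2 vehicle and 3 CDDO-Me libraries were low-Arntl. High-Arntl C151S libraries measured 9.15, 8.78, and 8.52 with vehicle and 6.89 and 8.50 after CDDO-Me. Low-Arntl ones measured 10.01 and 10.24 with vehicle and 9.99, 10.29, and 9.57 after it. Both wild-type calls were lost when all 30 libraries were fitted together, a fit whose spread includes the mutant groups.

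The members just short of the threshold in wild-type mice were Ciart, at 1.34 ± 0.36 (SE, adjusted p = 0.056), Npas2, at -1.46 ± 0.40 (SE, adjusted p = 0.0655), and Wee1, at 0.75 ± 0.22 (SE, adjusted p = 0.0862) by edgeR; DESeq2, which called 3.93% of genes, called all 3. Arntl, Clock, Dbp, and Nr1d1 were not called either. The difference of Arntl was 0.00 ± 0.26, that of Clock 0.01 ± 0.12, that of Dbp 0.03 ± 0.31, and that of Nr1d1 -0.20 ± 0.19 log2 units (SE). By edgeR, 7 of 28 members had an unadjusted p below 0.05, as had 17% of all genes. The median over the 28 members was 0.02, against -0.01 over all genes. In wild-type mice 1 of 4 tested markers of lymphocytes and neutrophils was higher and 1 of 3 erythroid markers lower after CDDO-Me, and their part was not tested.

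In C151S mice edgeR called 0 of 28 members after CDDO-Me, with 1 member (Per1) below an unadjusted p of 0.05, as were 13.7% of all genes. DESeq2 called 0 members (0.709% of genes), and edgeR called 0.092% of 14128 genes. In Nrf2-knockout mice 0 of 27 tested members were called, with 2 members (Nr1d1 and Csnk1e) below an unadjusted p of 0.05, as were 7.85% of all genes. DESeq2 called 0 members (0.38% of genes), and edgeR called 0% of 14474 genes. Npas2 failed the filter in that comparison. Each of these groups held low-Arntl and high-Arntl libraries in both treatments, so a treatment difference there is set against the spread between the sets. With the set as a term in the model 0 members were called in either genotype, against 0.0283% of genes in C151S and 0% in Nrf2-knockout mice.

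**Figure D4:**
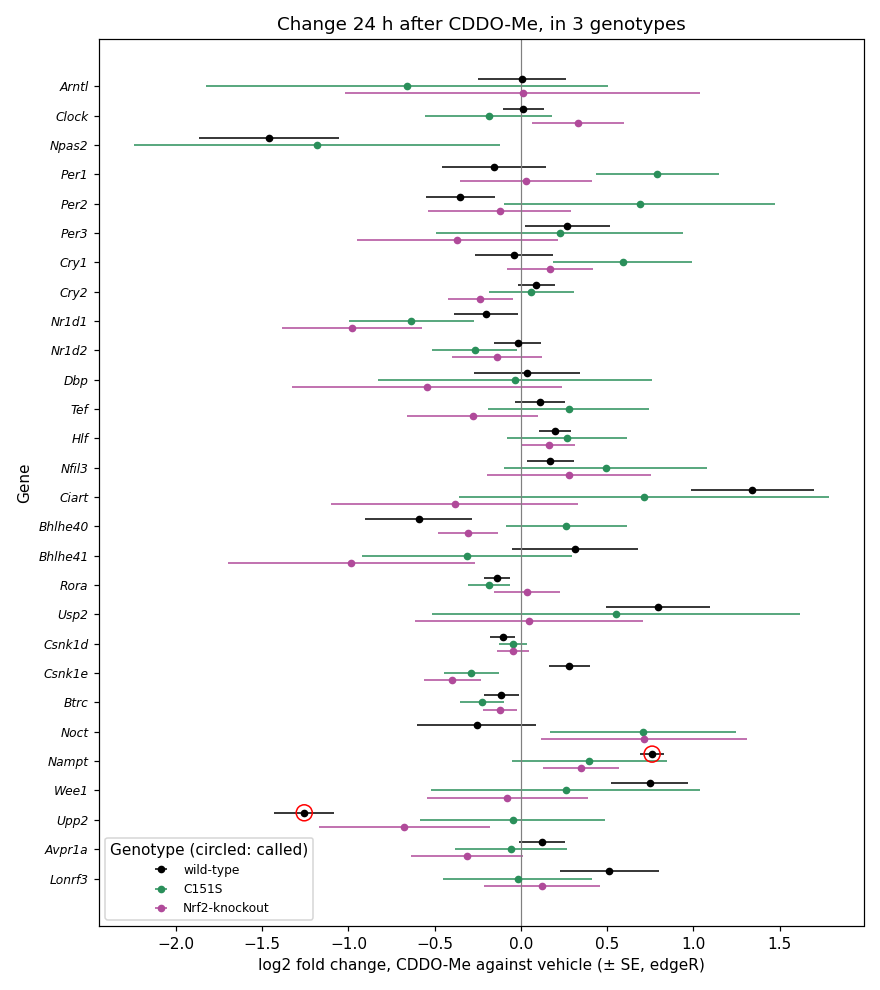
Log2 fold change of each member after CDDO-Me against vehicle (x axis, ± SE from edgeR) for each member (y axis) in the 3 genotypes; circles mark called changes. Only Nampt and Upp2 in wild-type mice are circled, and the bars of Arntl, Dbp, and Usp2 are wider in both mutant genotypes.

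The difference of responses between genotypes was tested directly in the fit of 30 libraries, at an adjusted p under 0.05 with no fold threshold. For wild-type minus C151S edgeR called 0 of 28 members (0.48% of all genes), for wild-type minus Nrf2-knockout 0 (0.266%), and for C151S minus Nrf2-knockout 0 (0.0133%). DESeq2 called 0 in each (0.753%, 0.566%, and 0.02% of genes). An unadjusted p below 0.05 was found for 1, 1, and 0 members, against 8.31%, 6.28%, and 4.92% of all genes. The single member with unadjusted p below 0.05 in both differences from wild-type mice was Csnk1e, a kinase that phosphorylates PER proteins, at 0.57 ± 0.20 and 0.68 ± 0.20 log2 units (SE). Both differences share the same wild-type mice and are not independent. For Nampt the difference was 0.37 ± 0.45 from C151S and 0.41 ± 0.45 from Nrf2-knockout mice, and for Upp2 it was -1.21 ± 0.68 and -0.58 ± 0.68 (SE), none of them called. The differences from C151S mice include the uneven share of low-Arntl libraries in the C151S groups. With high-Arntl libraries alone, Nampt was called in the difference from C151S mice, at 0.77 ± 0.16 log2 units (SE, edgeR adjusted p = 0.0433, 0.26% of genes). That subset was picked by Arntl, on which Nampt had a slope of -0.26 ± 0.02 (SE) over all 30 libraries. It held only 3 vehicle-treated and 2 CDDO-Me-treated C151S libraries. Without replicate 5 of the CDDO-Me-treated Nrf2-knockout mice, Csnk1e was called in the difference from that genotype, at 0.84 ± 0.19 log2 units (SE, edgeR adjusted p = 0.0417; 0.283% of genes).

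Genotype comparisons at fixed treatment included the set difference, since no wild-type library was low-Arntl and the low-Arntl libraries entered on the mutant side alone. The same comparisons within the high-Arntl set are given after them. Vehicle-treated C151S mice differed from wild-type in 1 of 28 members, a share close to the 4.84% of all genes called. It was Ciart, which differed by 3.66 ± 1.00 (SE, adjusted p = 0.0448). Vehicle-treated Nrf2-knockout mice differed in 7 (10.4%): Per2, Ciart, Dbp, Wee1, and Usp2 were higher, and Clock and Nfil3 lower. Ciart differed by 3.91 ± 0.81 (SE, adjusted p = 0.0095), Dbp by 1.80 ± 0.53 (SE, adjusted p = 0.0388), and Clock by -0.94 ± 0.23 (SE, adjusted p = 0.0193) log2 units by edgeR. In the latter comparison edgeR also called 3 of 5 endothelial markers, 2 of 5 stellate cell markers, and 1 of 4 tested markers of lymphocytes and neutrophils higher, and 2 of 3 erythroid markers lower. The summed endothelial markers ran from 144 to 171 CPM in wild-type and from 182 to 285 CPM in Nrf2-knockout mice, those of stellate cells from 144 to 200 and from 133 to 381 CPM, and the erythroid ones from 202 to 296 and from 128 to 202 CPM. In C151S mice 1 of 5 cholangiocyte markers was called lower. The part of these markers in the member calls was not tested.

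After CDDO-Me, C151S mice differed from wild-type in 4 members (5% of genes called), Upp2, Ciart, Usp2, and Per1, all higher, and Nrf2-knockout mice in 5 (9.44%), with Per2, Upp2, Ciart, and Usp2 higher and Clock lower. These comparisons share wild-type mice with the treatment comparison. Ciart was 2.19 ± 0.38 (SE, adjusted p = 0.003) and Upp2 1.59 ± 0.38 (SE, adjusted p = 0.0182) in Nrf2-knockout mice by edgeR. Between C151S and Nrf2-knockout mice 0 of 28 members were called with vehicle (0.349% of genes) and 0 of 27 tested with CDDO-Me (0.162%). DESeq2 called 0 in both (1.26% and 0.834%). By edgeR, 1 member in each comparison had an unadjusted p below 0.05, against 11.3% and 7.82% of all genes. Of the markers of other cell types, 1 of 5 for Kupffer cells was lower in C151S and in Nrf2-knockout mice after CDDO-Me, and 1 of 5 for endothelium was higher in Nrf2-knockout mice, and their part was not tested.

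The number of members called turned on single libraries. With each library left out in turn it ran from 0 to 4 for vehicle-treated C151S mice, from 3 to 12 for vehicle-treated Nrf2-knockout mice, from 0 to 10 for C151S mice given CDDO-Me, and from 2 to 11 for CDDO-Me-treated Nrf2-knockout mice. The highest numbers came without high-Arntl libraries of the mutants: 4 (3.91% of all genes in that fit) without replicate 3 of the vehicle-treated C151S mice, 12 (12%) without replicate 5 of the vehicle-treated Nrf2-knockout mice, 10 (9.28%) and 9 (7.19%) without replicates 1 and 2 of the C151S mice given CDDO-Me, and 11 (10%) without replicate 2 of the CDDO-Me-treated Nrf2-knockout mice. Leaving out such a library raises the share of low-Arntl libraries on the mutant side.

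None of these member calls against wild-type mice was made when only high-Arntl libraries were used. These subsets were picked by Arntl and held 2 or 3 mutant libraries per group against 5 wild-type ones. Genes that follow Arntl were thereby drawn towards wild-type levels in advance, so these fits cannot decide whether genotype changes them. In vehicle-treated C151S mice edgeR then called 3 other members, Per2, Cry1, and Hlf, all lower, when 14.2% of all genes were called. After CDDO-Me it called Bhlhe41, Dbp, and Nampt lower in C151S mice, against 2.03% of genes. In Nrf2-knockout mice it called Avpr1a higher with vehicle, against 8.08% of genes, and Bhlhe41 and Nampt lower after CDDO-Me, against 7.49%. The estimates of Usp2 and Ciart changed sign in C151S mice after CDDO-Me, at -0.12 and -0.01, and that of Usp2 in vehicle-treated Nrf2-knockout mice, at -0.33 log2 units, none of them called.

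Within each set the slope of each gene on Arntl was fitted with a mean per group. In the 19 high-Arntl libraries edgeR called 0 of 27 members, with 11 members at an unadjusted p below 0.05, as had 3.18% of all genes, and 6 by DESeq2 (0.161% of genes); 0% of 15393 genes were called by edgeR. The steepest slopes per log2 unit of Arntl were those of Npas2, 1.29 ± 0.20 (SE, adjusted p = 0.108), and Dbp, -1.27 ± 0.23 (SE, adjusted p = 0.147) by edgeR. Tef was at -0.50 ± 0.09, Bhlhe41 at -1.12 ± 0.22, and Cry1 at 0.55 ± 0.12. In the 11 low-Arntl libraries 0 of 26 members were called, with 6 members at an unadjusted p below 0.05, close to the 18.6% of all genes, 3 by DESeq2 (4.82%), and 0% of 15300 genes by edgeR; Noct was at -1.13 ± 0.20 (SE, adjusted p = 0.0648) and Nfil3 at 0.91 ± 0.18 (SE, adjusted p = 0.0754) by edgeR. In the low-Arntl set 5 of 5 Kupffer cell markers, 3 of 5 endothelial markers, and 3 of 5 stellate cell markers also had an unadjusted p below 0.05, with median slopes of -1.0, -0.51, and -0.31 log2 units and 0 called by edgeR, and their part was not tested. Leaving out 1 library gave at most 2 called members in the high-Arntl set, without replicate 2 or replicate 5 of the CDDO-Me-treated Nrf2-knockout mice. Without replicate 1 or replicate 2 of the C151S mice given CDDO-Me it gave 1 (0.0187% and 0.0313% of genes). In the low-Arntl set it gave at most 1, Noct, without replicate 4 (0.682% of genes) or replicate 5 (0.499%) of the C151S mice given CDDO-Me.

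Other genes of the pathway were described from 3 lists, beside the 2.75% of 13697 genes called in wild-type mice after CDDO-Me. The lists were written with earlier results of these data known, so their counts are a description and not a test against that share. Of 19 tested regulators of the clock, 1 was called there, Prkaa2, a catalytic subunit of the kinase AMPK, which was higher by 0.61 ± 0.12 log2 units (SE, edgeR adjusted p = 0.0118). Of 22 rhythmic liver outputs, 4 were called. Tspan4 differed by 0.61 ± 0.07 log2 units (SE, edgeR adjusted p = 0.000364), and Alas1, the rate-limiting enzyme of heme synthesis, by 1.00 ± 0.22 log2 units (SE, edgeR adjusted p = 0.0211). Insig2, which acts in sterol regulation, differed by -0.59 ± 0.10 log2 units (SE, edgeR adjusted p = 0.00421), and Elovl3, a fatty acid elongase, by -1.99 ± 0.33 log2 units (SE, edgeR adjusted p = 0.00415). Of 8 temperature and glucocorticoid responsive genes, 1 was called, Fkbp5, a glucocorticoid-induced cochaperone, which was higher by 0.97 ± 0.21 log2 units (SE, edgeR adjusted p = 0.0207). In C151S and Nrf2-knockout mice 0 genes of the 3 lists were called by edgeR after CDDO-Me.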

How the data were processed

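Liver mRNA was measured in 30 libraries, 5 mice in each of 6 groups of genotype and treatment, grouped by their labels. The authors checked read quality with fastp without removing reads, aligned them to mm10 with STAR 2.7.7, and deposited raw counts per gene without normalization. STAR's 4 summary lines were left out, and 55154 of 55335 genes had a symbol in GENCODE release 21. Gene counts per library ran from 23667068 to 42073169, and no pair of libraries within a group agreed within sampling noise.

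Comparisons of 2 groups were fitted on their 10 libraries with edgeR 4.0.16 in R 4.3.3 (filterByExpr, TMM, quasi-likelihood F-test in the legacy form). Differences of responses used all 30 libraries. The SE was derived from the F statistic and the log2 fold change. The covariate for isolation date used in the study was not used here, as the sources used here do not give the dates. P values measure the spread between mice. The members and gene lists were chosen with earlier results of these data known. All 28 members are named; values in every library are given for Arntl, Npas2, Cry1, Nr1d1, Dbp, and Per3 and for members called after CDDO-Me in wild-type mice, and Ciart, Usp2, Tef, Per2, and Wee1 were singled out after their values were seen. Alternatives were DESeq2 1.42.0, upper-quartile factors, the edgeR 4 fit, other filters and thresholds, 1 surrogate variable (sva 3.50.0), a fit of all libraries, a replicate block, Arntl sets as a term or apart, and each library left out. The fits were tested on simulated counts. Apart from the changes put in, these had no genotype differences and no division by Arntl, so they do not test the fits under that division. Promoter windows came from RefSeq, GRCm38.p6. Of 7 motif forms searched, 1 was added after the matches of the others were seen. Gene positions and exon lengths came from GENCODE release 21.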

Additional observations from a re-analysis of the deposited data

Results flagged for a closer look

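In each group of 5 libraries, the highest or lowest value of every member was compared with the others by Dixon's criterion, which flags about 1 group in 20 by chance. Of 168 sets of a member and a group, 14 stood out, and no explanation of them was tested. Replicate 2 of the vehicle-treated wild-type mice stood apart for Clock (5.44 log2 CPM), Nr1d2 (5.73), and Bhlhe41 (-0.89). Replicate 2 of the CDDO-Me-treated Nrf2-knockout mice stood apart for Nr1d1 (3.81), Nr1d2 (5.15), and Csnk1d (6.35), and replicate 5 of that group for Cry2 (4.93) and Csnk1e (3.07). Single values that stood apart were Btrc in replicate 4 of that group (4.07), Per1 in replicate 5 (3.17), Hlf in replicate 1 (5.88), and Lonrf3 in replicate 2 (-0.65) of the vehicle-treated Nrf2-knockout mice, Avpr1a in replicate 3 of the vehicle-treated wild-type mice (4.15), and Lonrf3 in replicate 5 of the CDDO-Me-treated wild-type mice (-0.33), all in log2 CPM.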

How the results depend on the processing

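Shares in brackets are those of all genes tested in the same fit. In wild-type mice after CDDO-Me, 5 members were called by DESeq2 (3.93%), 5 with no filter on low counts (1.75%), and 0 in 1 fit of all 30 libraries (0.979%). Leaving out 1 library gave 2 to 3 (1.92% to 3.56%). For vehicle-treated C151S against wild-type mice, DESeq2 called 4 members (7.22%), 1 surrogate variable 14 (7.55%), and high-Arntl libraries alone 3 (14.2%). Over libraries left out it was 0 to 4 (2.78% to 8.28%). For vehicle-treated Nrf2-knockout against wild-type mice, the fit of all libraries called 2 (9.94%), the surrogate variable 4 (5.07%), and high-Arntl libraries alone 1 (8.08%). Over libraries left out it was 3 to 12 (6.75% to 14.5%). After CDDO-Me, C151S against wild-type mice gave 7 by DESeq2 (8.34%) and 1 with the surrogate variable (4.58%), with 0 to 10 over libraries left out (2.7% to 9.28%). Nrf2-knockout against wild-type mice then gave 1 in the fit of all libraries (10.4%) and 2 in high-Arntl libraries alone (7.49%). Over libraries left out it was 2 to 11 (6.93% to 10.6%). The difference of responses of wild-type and C151S mice gave 1 in high-Arntl libraries alone (0.26%). That of wild-type and Nrf2-knockout mice gave 0 to 1 over libraries left out (0.283% in the fit with 1). For slopes on Arntl, DESeq2 called 6 (0.161%) and 3 (4.82%) members in the high-Arntl and low-Arntl sets, and no filter 2 (0.0131%) and 2 (0.91%). Over libraries left out it was 0 to 2 in the high-Arntl set and 0 to 1 in the low-Arntl set (0.682% and 0.499% in the low-Arntl fits with 1). A fit of all 30 libraries without separating the sets called 20 members (17.7%), and its slopes include the difference between the sets. In high-Arntl libraries alone the estimate changed sign, without being called, for Usp2 (-0.33) in vehicle-treated Nrf2-knockout mice and for Ciart (-0.0055) and Usp2 (-0.12) in CDDO-Me-treated C151S mice. The cause of these changes was not tested, and the subsets also held fewer libraries.

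Same-numbered mice did not all correlate above 0.1 in any comparison, so the numbers were not taken as pairs. Mean correlations of same-numbered and of other mice were 0.25 and -0.06 for C151S against wild-type mice after CDDO-Me. They were 0.19 and -0.05 for CDDO-Me against vehicle in Nrf2-knockout mice. For C151S against Nrf2-knockout mice with vehicle they were -0.21 and 0.05. A replicate block called 0 members for vehicle-treated C151S mice (4.07% of genes). It called 3 for each Nrf2-knockout comparison with wild-type mice (8.6% with vehicle and 8.93% with CDDO-Me). Per1, among those after CDDO-Me, was not called there in the main fit. Elsewhere the block changed the number of calls by less than 1.5 times, but not always with the same genes. For C151S against wild-type mice after CDDO-Me it called 3 (5.97%), among them Noct and Bhlhe40, which the main fit did not call. A transcript near 3 counts, such as Npas2 in the low-Arntl libraries, is limited by depth.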
